A study of Saccharomyces cerevisiae with 3 samples.

Results

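High hydrostatic pressure was set against atmospheric pressure in the budding yeast Saccharomyces cerevisiae, for every gene on a NimbleGen oligonucleotide array of 1 colour. The comparison used 2 of the 3 arrays of the series and all 6337 rows of the table of log2 levels, which stand for 6270 genes. RNA for the high-pressure array came from a 5 h incubation at 25 MPa and 24 °C, and RNA for the control array from cells at 24 °C and 0.1 MPa, which is atmospheric pressure. The third array, made after a 5 h incubation at 15 °C and 0.1 MPa, is named only where its level is set beside the other two. All cells are labelled BY4742, a haploid laboratory strain of alpha mating type with deletions at HIS3, LEU2, LYS2 and URA3. The control was taken at its growth density, with no 5 h incubation stated, so pressure and time in culture cannot be told apart. RNA of 3 cultures was mixed for each array, so there is 1 array a side, no replicate error and no test of any difference. The free text of all 3 sample records names a different strain background and a warmer rich-medium culture, which conflicts with the titles.

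Hydrostatic pressure favours states of smaller volume. It orders the lipids of membranes, much as cold does, loosens many protein complexes and slows their assembly. In yeast, moderate pressure is known to limit growth through the uptake of amino acids, above all of tryptophan in strains that cannot make it, and the permeases that carry them are ubiquitinated and sent to the vacuole for breakdown. The cell wall proteins of the DAN/TIR family, normally made when oxygen or warmth is lacking, are the genes named in the title of the series.

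Values are log2 levels made by robust multiarray average (RMA), and a log2 ratio is the level under pressure minus the level in the control. A gene was counted as higher or lower past 1.5-fold, a log2 ratio beyond 0.58, when its higher level reached the 25th percentile of that array. That left 4902 genes counted, of which 1376 (28.1%) were higher and 599 (12.2%) lower under pressure. Among the 2930 of them above their mismatch probes on both arrays the shares were 27.7% and 14.7%. The counts were 840 higher and 1231 lower with each array centred on its median, and 1009 and 925 with the gene values quantile normalized. The direction of the excess therefore depends on the scaling, and every group below is read against these shares. The median log2 ratio over all genes was 0.13 as deposited, -0.21 with the arrays centred and -0.06 after quantile normalization. Under all 4 other scalings (perfect-match intensities, centring, quantile normalization and removal of the length trend), 711 of the higher and 228 of the lower genes stayed past 1.5-fold.

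A gene was taken as above mismatch when its 15 perfect-match probes exceeded their mismatch partners by a one-sided limit of 5%. By that measure 3063 genes were seen on both arrays, 848 on the pressure array alone and 343 on the control array alone. Where a gene was not above mismatch on the array where it was dimmer, the RMA ratio is written with "at least", which marks the missing detection and is no guaranteed minimum. Repeat measurements exist only within an array, for 65 genes with more than 1 row. Their ratios differed by a median of 0.38 and at most 1.45, with 49 of the 65 within 1.5-fold. For the 51 with rows under 1 name the median was 0.40, and for the 14 with rows under different names 0.24, so a single ratio just past that size lies within what the rows of a gene can differ by. The mating-type check showed alpha genes: MF(ALPHA)1, an alpha-factor gene, had levels of 13.43 and 13.21, and none of the 7 a-specific genes was past 1.5-fold. STE2 and AGA2 were the only a-specific genes above mismatch on either array. LEU2, LYS2 and URA3 were above mismatch on neither array, whereas HIS3 was above mismatch on both, at 7.12 and 8.34. How much of each of these genes its deletion removes was not examined, so the HIS3 signal says nothing about the strain label.

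**Figure D1:**
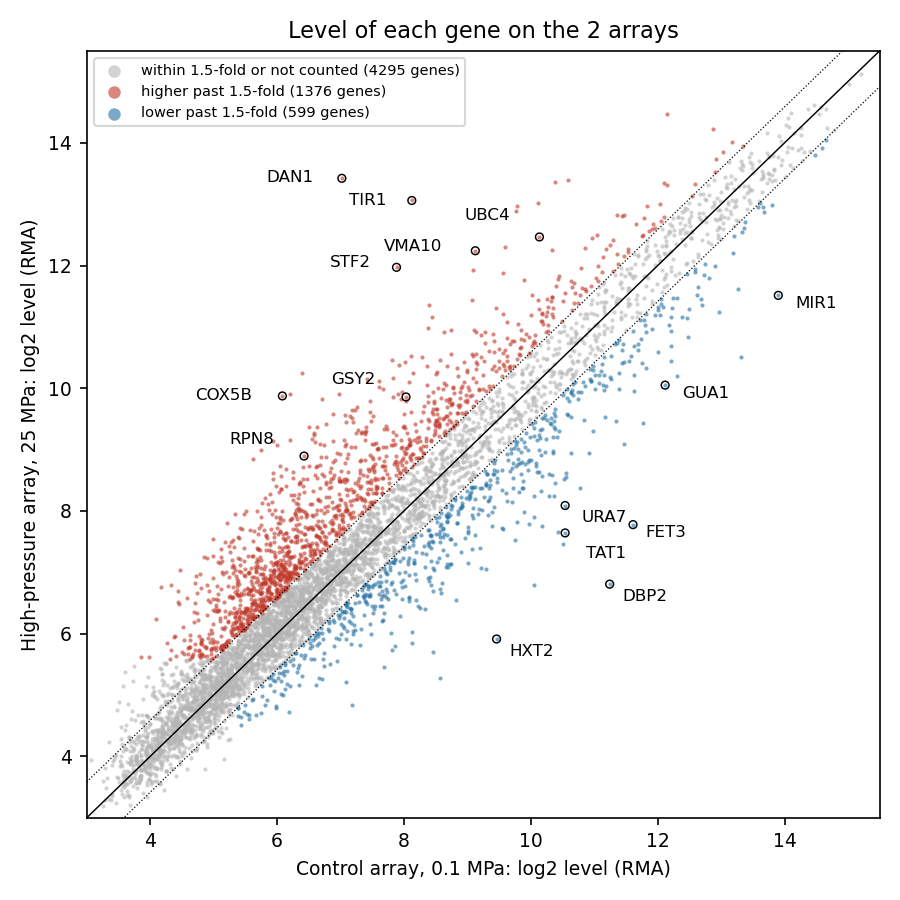
Log2 level (RMA) of each of 6270 genes on the control array (horizontal axis) and on the high-pressure array (vertical axis). The solid line marks equal levels and the dotted lines 1.5-fold. The 1376 genes in red were higher and the 599 in blue lower on this scale, but with each array centred on its median the lower genes were more numerous (840 higher, 1231 lower). The labelled genes are examples given in the text, apart from TIR1 and HXT2. TIR1, not above mismatch on the control array, had a log2 ratio of 4.94, and HXT2 one of -3.55.

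Gene length ran with the ratio across the whole table. Among genes in the shortest of 5 length bins (72 to 654 bp), 50.1% were higher and 6.11% lower, for a median log2 ratio of 0.43. In the longest bin (2100 to 14733 bp) 10.9% were higher and 18.6% lower, for a median of 0.01. The share of higher genes was smaller in each longer bin. Whether the trend lies in the cells, in the RNA or in the labelling was not tested. Length was known for 92.0% of the genes.

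**Figure D2:**
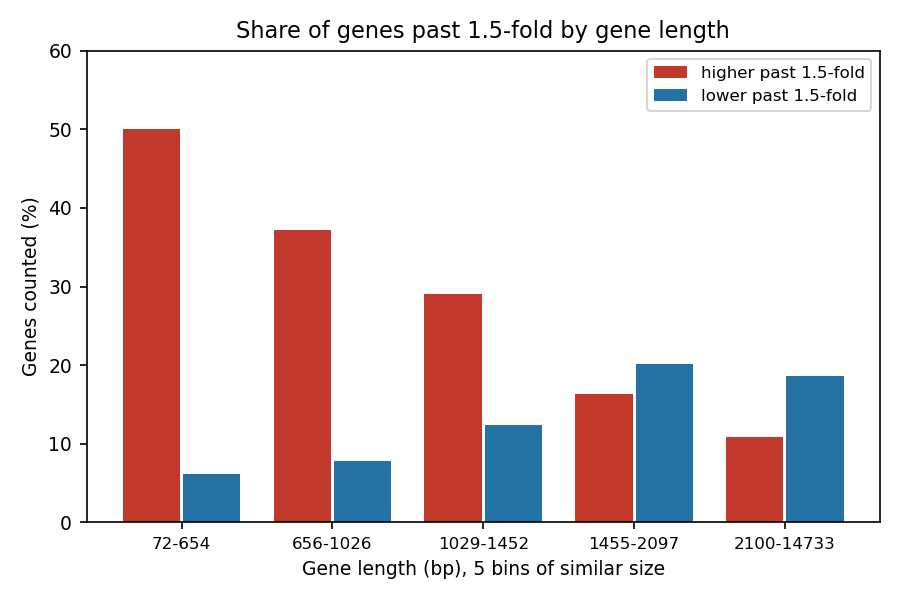
Share of counted genes (percent, vertical axis) that were higher (red) or lower (blue) past 1.5-fold under pressure, in 5 bins of gene length (base pairs, horizontal axis). The share of higher genes falls from 50.1% in the shortest bin to 10.9% in the longest on the deposited scale. Centring each array turns the overall balance between red and blue.

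The proteasome, the complex that degrades ubiquitinated proteins, was higher under pressure nearly throughout. Of 32 genes of its list, 25 were higher and none lower, for a median log2 ratio of 1.16 against 0.13 for all genes. The count was 26 with perfect-match intensities, 22 with centred arrays and 25 without the length trend, with 0 lower each time. RPN8, a subunit of the regulatory lid, had a level of 6.43 in the control and 8.90 under pressure, a ratio of 2.47 (5.54-fold). RPN5, of the same lid, was at 5.31 in the control and 7.53 under pressure (4.67-fold). These 2 lid genes were the highest of the list, followed by 3 genes of the alpha rings of the core particle. Of those, PRE9 had levels of 7.51 and 9.55 (4.10-fold), SCL1 7.82 and 9.85 (4.08-fold), and PUP2 6.88 and 8.80 (3.79-fold).

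All parts of the particle shared the direction, under every scaling run. The 14 core genes had a median of 1.17 with 13 higher, the 6 ATPases of the base 1.03 with 4 higher, and the 11 Rpn subunits 1.23 with 8 higher. The members inside 1.5-fold included RPN1 and RPN2, the largest scaffold subunits, at 0.05 and 0.04, the ubiquitin receptor RPN10 at 0.22, the ATPase RPT5 at 0.16 and the core gene PRE8 at 0.30. RPN4, the transcription factor that drives proteasome genes, stood at 8.01 and 8.37, without a signal above mismatch on either array. Genes for the supply and transfer of ubiquitin lay on both sides. UBI4, the stress-induced polyubiquitin gene, was at 9.07 in the control and 10.56 under pressure (2.81-fold higher), and UBC4, a ubiquitin-conjugating enzyme for short-lived and damaged proteins, at 10.14 and 12.47 (5.03-fold higher). UBC5, its close relative, was lower by 2.43-fold, at 9.96 and 8.68. The ubiquitin ligase RSP5, which marks permeases for breakdown, had 8.56 and 8.23, inside 1.5-fold, and so had its adaptors BUL1 (0.07), ALY1 and ALY2 on levels of 7.22 and 6.66 under pressure, the last 2 above mismatch on neither array.

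The vacuolar ATPase, the proton pump that acidifies the vacuole, was higher in part. Of 18 genes, 17 passed the filter on low levels, 9 were higher and none lower, for a median of 0.71 over all 18. With centred arrays 8 were higher and 1 lower, and with perfect-match intensities 12 and 0. Subunits of the peripheral sector that turns over ATP led the list. VMA10, a subunit of the peripheral stalk, was at 9.13 in the control and 12.24 under pressure (at least 8.67-fold), VMA8, the central rotor subunit, at 7.81 and 10.45 (6.25-fold), and VMA7 at 9.07 and 11.44 (5.17-fold). VMA4, another stalk subunit, was at 9.90 in the control and 11.76 under pressure (3.65-fold).

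The 8 peripheral subunits had a median of 1.37 with 5 higher, and the 7 membrane subunits 0.19 with 1 higher. The second value turned to -0.15 with centred arrays and to -0.11 without the length trend. Among the membrane subunits, the proteolipid VMA3 lay at 13.82 and 13.78, and STV1, the subunit a form of the Golgi, at 8.01 and 7.68. All 3 assembly factors of the endoplasmic reticulum were higher, VMA21 at 9.13 and 10.91 (3.43-fold). VMA1, the catalytic subunit, and VMA2, its partner in the head, were inside 1.5-fold at 0.31 and 0.20, so the shift was not shared by all peripheral subunits.

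Autophagy and vacuolar proteolysis genes counted 8 higher and 1 lower of 18, for a median of 0.41 that was 0.08 with centred arrays. PBI2, an inhibitor of the vacuolar protease B that also acts in vacuole fusion, was at 8.38 in the control and 10.98 under pressure (6.06-fold). ATG8, the ubiquitin-like protein of autophagosome membranes, had 6.77 and 8.88 (4.31-fold). ATG19, the receptor that brings aminopeptidase to the vacuole, had 5.62 and 7.26 (3.11-fold), and its cargo APE1 7.88 and 9.24 (2.56-fold). The major vacuolar proteases were inside 1.5-fold, with PEP4 at 0.14 and PRB1 at 0.33.

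Chaperone genes lay on both sides. Of 22 measured genes of the Hsp70 and Hsp90 systems, 13 were higher and 3 lower, for a median of 0.85 and of 0.51 to 0.95 over the scalings run. HCH1, a co-activator of Hsp90, was at 7.40 in the control and 9.31 under pressure (3.76-fold). SGT2, which hands tail-anchored proteins to their targeting pathway, had 7.69 and 9.33 (3.12-fold). The Hsp90 cochaperone SBA1 had 8.84 and 10.33 (2.80-fold), and the immunophilin CPR6 8.11 and 9.61 (at least 2.82-fold). SIS1, an essential Hsp40, had 8.46 and 9.94 (2.79-fold). Both Hsp90 genes were higher, HSP82 at 1.17 and HSC82 at 0.84.

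The Hsp70 chaperones that sit on ribosomes were lower. SSB1 had 13.35 and 12.61 (1.67-fold lower), SSB2 13.67 and 12.88 (1.73-fold lower) and their partner SSZ1 11.58 and 10.52 (2.09-fold lower). SSB1 and SSB2 are near-identical, so their probes may read each other's transcript. With perfect-match intensities none of the 3 stayed past 1.5-fold, at -0.42, -0.26 and -0.57. The stress-induced Hsp70 gene SSA4 lay at 6.61 and 6.37, inside 1.5-fold, beside HSP104, the disaggregase, at 1.98.

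Prefoldin and the CCT chaperonin, which work together in folding actin and tubulin, lay on opposite sides. All 6 prefoldin genes were higher, with ratios from 1.08 (PAC10) to at least 2.15 (PFD1) and a median of 1.59. GIM4 was at 6.22 in the control and 8.27 under pressure (4.15-fold), and GIM3 at 7.00 and 8.65 (at least 3.13-fold). Of the 8 CCT genes none was higher and 3 were lower, for a median of -0.44 and CCT6 at 10.22 and 8.96 (2.40-fold lower). The 2 groups of ratios did not overlap, and both medians kept their sign under every scaling. Prefoldin genes span 330 to 600 bp and CCT genes 1584 to 1707 bp, and without the length trend the medians were 1.30 and -0.36. Of all genes in the length bin of prefoldin, 50.1% were higher and 6.11% lower. In the length bin of CCT 16.3% were higher and 20.1% lower, so genes of these lengths lean to opposite sides across the array. In the wider list of 25 genes of the actin and tubulin cytoskeleton 8 were higher and 1 lower, for a median of 0.14 that turned to -0.20 with centred arrays. Both tropomyosins were higher, TPM1 at 6.88 and 9.14 (at least 4.80-fold) and TPM2 at 4.44 and 6.69 (at least 4.77-fold), as was the actin-capping subunit CAP1 (7.46 and 9.79, 5.03-fold). The folding substrates themselves were not among the higher genes. ACT1, actin, lay at -0.13 (0.11 with perfect-match intensities), the alpha-tubulins TUB1 and TUB3 at -0.54 and -0.12 and the beta-tubulin TUB2 at -0.58, all inside 1.5-fold, and gamma-tubulin, TUB4, was lower (7.69 and 6.63, 2.08-fold).

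In the secretory and mitochondrial folding systems the balance changed with scaling. Of 20 genes for folding and degradation in the endoplasmic reticulum 7 were higher and 1 lower, but 3 and 3 with centred arrays. DER1, a channel component for the export of misfolded proteins, was at 5.21 in the control and 7.80 under pressure (at least 6.03-fold), and SEC61, the import channel, at 11.95 and 11.19 (1.69-fold lower). Of 21 genes of mitochondrial import 8 were higher and 3 lower, with 6 and 6 when centred and 7 and 4 without the length trend. The small chaperone of the intermembrane space TIM10 had 8.11 and 10.52 (at least 5.34-fold), the matrix disaggregase HSP78 6.29 and 7.97 (3.20-fold), and the channel subunit TIM23 9.90 and 9.12 (1.71-fold lower).

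Glycogen metabolism was higher as a group. Of 13 genes 9 were higher and none lower, for a median of 1.11 and 0.74 to 1.16 over the scalings, although 1 was lower with perfect-match intensities, centring or quantile normalization. The higher genes served both synthesis and breakdown. GSY2, the main glycogen synthase, was at 8.03 in the control and 9.86 under pressure (3.54-fold), the branching enzyme gene GLC3 at 7.07 and 8.78 (3.27-fold), and GPH1, the phosphorylase that degrades glycogen, at 7.40 and 9.37 (3.92-fold). GLC7, the protein phosphatase that activates the synthase, had 7.06 and 9.15 (4.27-fold). The debranching enzyme gene GDB1 lay at 0.13 and the targeting subunit GAC1 at -0.03. Trehalose genes were nearer to the background, with 2 of 10 higher and 1 lower, among them PGM2, the main phosphoglucomutase (7.55 and 8.77, 2.33-fold), and TPS1, trehalose phosphate synthase (9.67 and 10.32, 1.57-fold).

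Genes of the general stress response under Msn2 and Msn4 were spread widely. Of 26 genes 11 were higher and 5 lower, for a median of 0.25 that turned to -0.09 with centred arrays. The highest member was STF2 at 4.09, and EGO4 at 3.69 (not above mismatch in the control) and RGI1 at 3.23 were higher too. The lowest was DDR2 at -2.80, not above mismatch under pressure. PNC1, a nicotinamidase, was among the higher ones (9.21 and 10.87, 3.16-fold), while ALD3, a cytosolic aldehyde dehydrogenase, was lower (8.40 and 6.93, 2.78-fold). CTT1, the cytosolic catalase, was lower as well (8.40 and 7.69, 1.63-fold), and the small heat shock gene HSP26 had 8.63 and 7.62 (at least 2.02-fold lower). HSP12, a membrane-associated stress protein, lay at 0.19. Redox genes held 10 higher and 3 lower of 23, but 5 and 9 with centred arrays and 7 and 7 without the length trend. The glutaredoxin GRX1 was at 6.97 in the control and 9.91 under pressure (7.66-fold), the thioredoxin TRX1 at 11.35 and 12.83 (2.78-fold), and the thioredoxin reductase TRR1 at 10.94 and 10.11 (1.78-fold lower).

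**Figure D3:**
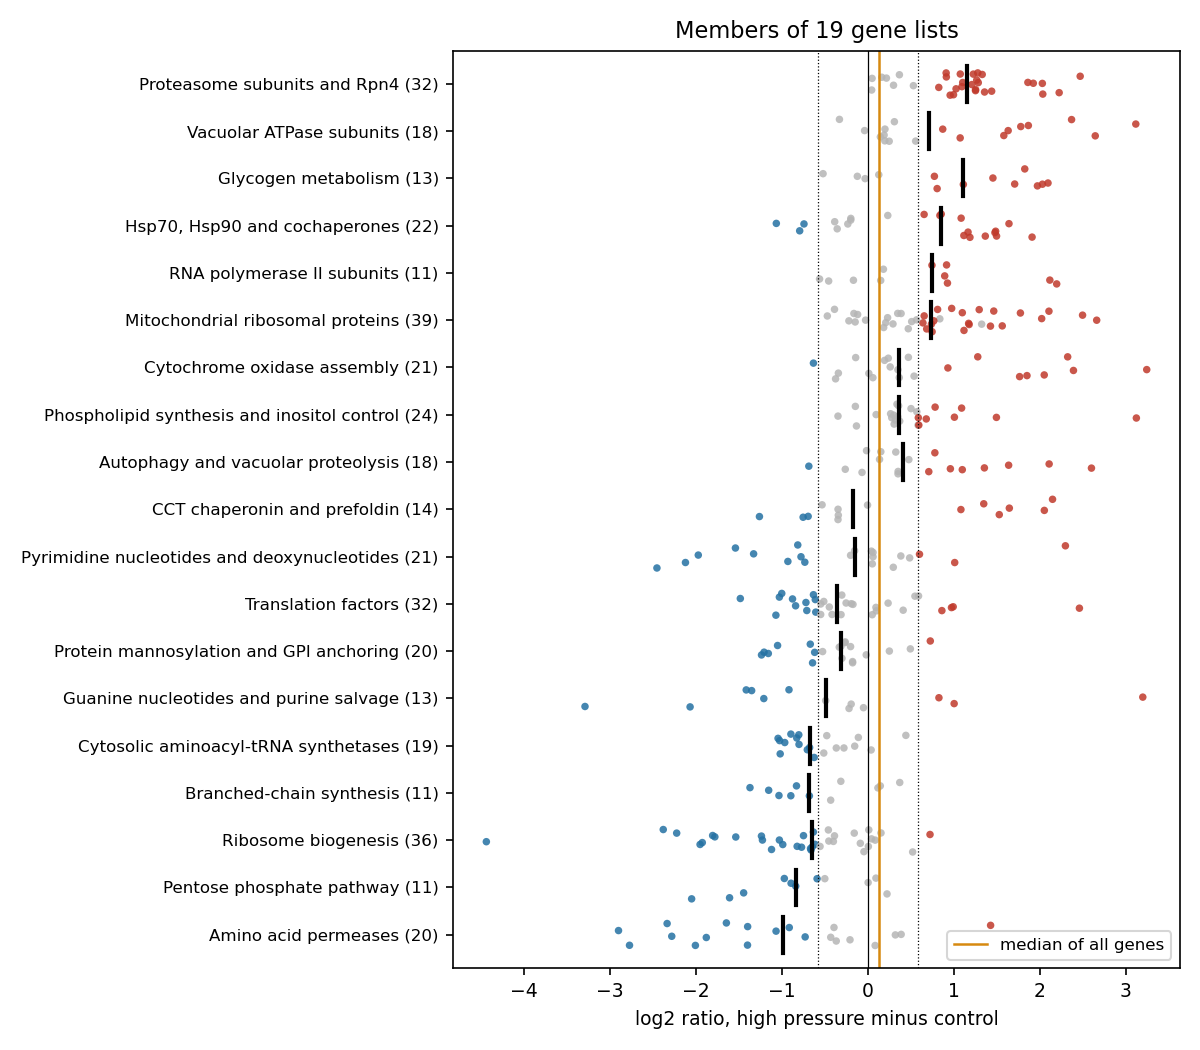
Log2 ratio of each member (points) of 19 gene lists, with the number measured in brackets. Black bars are list medians, dotted lines mark 1.5-fold, and points are red or blue where counted as higher or lower. Proteasome, glycogen and Hsp70/Hsp90 genes lie mostly to the right, and permease, pentose phosphate and ribosome biogenesis genes to the left, under all scalings run. The median of the pyrimidine list changes sign with perfect-match intensities.

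Among mitochondrial lists, ribosomal proteins held the most higher genes, and respiratory subunits lay on both sides. Of 39 mitochondrial ribosomal proteins 36 passed the filter, 21 were higher and none lower, for a median of 0.74. That count was 13 with perfect-match intensities, 14 (with 2 lower) with centred arrays and 16 (with 1 lower) without the length trend. MRPL39 had levels of 6.58 and 9.24 (6.32-fold), MRP2 7.07 and 9.57 (at least 5.64-fold), MRPS16 6.61 and 8.72 (4.30-fold), and at the other end RSM7 9.17 and 8.70. Assembly factors of cytochrome c oxidase were higher for 8 of 21 and lower for 1, for a median of 0.37 that was 0.03 with centred arrays (8 and 3). That share is near the 37.1% of all genes in the length bin of their median length, 888 bp. COX14 was at 7.16 in the control and 9.55 under pressure (at least 5.24-fold), and PET191 at 5.17 and 7.50 (at least 5.01-fold). SCO2, a copper-binding protein of the inner membrane, had 5.11 and 7.16 (at least 4.14-fold).

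Among subunits of the respiratory complexes 7 were higher and 7 lower of 22, with no side kept across the scalings and 4 and 9 without the length trend. COX5A, the subunit V form made with oxygen, was lower (9.09 and 7.89, 2.30-fold), opposite to COX5B, its form for low oxygen (6.08 and 9.88, at least 13.8-fold). The 2 cytochrome c genes were divided in the same way, with CYC7, the form for low oxygen, at 5.32 and 7.09 (at least 3.43-fold higher) and CYC1 at 6.66 and 6.01 (at least 1.57-fold lower, with a log2 ratio of -0.11 from perfect-match intensities). The ATP synthase list counted 7 higher and 4 lower of 19, for a median of 0.43. The counts were 4 and 5 with centred arrays, and 4 and 4 without the length trend. Lower members included ATP5, ATP2 and ATP1 at -1.41, -1.34 and -1.01. The highest member was STF2, a stabilizing factor of the enzyme, at 7.88 and 11.97 (17.0-fold). STF1, an inhibitor of the enzyme, was at 7.67 in the control and 9.99 under pressure (4.98-fold). INH1, the related inhibitor, was at 9.85 in the control and 8.61 under pressure (2.35-fold lower). Genes encoded in the mitochondrial genome, 23 in all, had a median of -0.05, with 0 higher and 1 lower, and 4 of them were above mismatch on both arrays. MIR1, the phosphate carrier of the inner membrane, had 13.90 and 11.51 (5.23-fold lower), and NCA3, linked to expression of ATP synthase subunits of the mitochondrial genome, 10.78 and 8.37 (5.30-fold lower).

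Hypoxic genes were higher for 9 of 16 with none lower, although 3 were lower with centred arrays and 1 after quantile normalization or without the length trend. DAN1 and TIR1 are among the higher genes of this list and belong to the DAN/TIR genes as well, so the 2 counts overlap. HEM13, the oxygen-using coproporphyrinogen oxidase of heme synthesis, was at 9.57 in the control and 11.88 under pressure (4.96-fold), while HEM1, the first enzyme of the pathway, was at 10.35 in the control and 9.20 under pressure (2.22-fold lower). AAC3, the ADP/ATP carrier of anaerobic cells, had 6.82 and 8.24 (at least 2.67-fold). ANB1, the hypoxic form of the translation factor eIF5A, lay at 12.39 and 12.44, inside 1.5-fold. Its aerobic partner HYP2, at 13.64 and 13.19, was inside 1.5-fold too. HYP2 is counted in the hypoxic list although it is the aerobic form, and had the lowest ratio of that list (-0.45). These 2 genes are alike in sequence, so their probes may share transcript. The repressor ROX1 and the activator UPC2 were above mismatch on neither array. Of the DAN/TIR genes, which the title of the series names and which are thus no independent evidence, 6 of 9 were higher, while DAN4, PAU24 and PAU23 were inside 1.5-fold at levels of 7.73, 8.78 and 6.99 under pressure. On the 15 °C array, which shares the control, DAN1 lay at 9.73 beside 7.02 in the control and 13.42 under pressure. TIR4 lay at 8.44 beside 8.40 in the control and 11.35 under pressure. Not all hypoxic genes were further from the control under pressure. COX5B lay at 10.12 at 15 °C beside 6.08 in the control and 9.88 under pressure.

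Membrane lipid lists did not share 1 direction, and their counts changed with the scaling. Of all counted genes 28.1% were higher and 12.2% lower. Of 16 genes of the ergosterol steps after farnesyl diphosphate 7 were higher and 1 lower (3 and 3 with centred arrays). ERG6, a sterol methyltransferase, was at 9.26 in the control and 10.45 under pressure (2.29-fold), and ERG7, lanosterol synthase, at 7.98 and 6.88 (2.15-fold lower). ERG11 and ERG3, which act later, lay at 0.58 and 0.62, around the limit of 1.5-fold. Fatty acid genes counted 2 higher and 2 lower of 16 (7 and 1 with perfect-match intensities), and multidrug transporters and lipid flippases 1 and 3 of 14 (0 and 6 with centred arrays). Phospholipid genes were higher for 8 of 24 with none lower, and 4 and 1 with centred arrays. Beside OPI3 at 3.12, the 2 other enzymes of the path to phosphatidylcholine were higher, CHO1 at 11.14 and 12.14 (2.01-fold) and CHO2 at 9.85 and 10.94 (2.13-fold). Transcripts of CHO1, CHO2 and OPI3 were thus all higher, while OLE1, the fatty acid desaturase, lay at 0.48 and the sensors SPT23 at -0.23 and MGA2 on levels of 4.64 and 5.19, inside 1.5-fold.

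Sphingolipid genes fell on both sides, with 6 higher and 4 lower of 24 (5 and 8 with centred arrays). Small regulatory subunits were among the highest. TSC3, which stimulates serine palmitoyltransferase, was at 8.29 in the control and 10.51 under pressure (4.68-fold), and LIP1, a subunit of ceramide synthase, at 9.28 and 10.91 (3.09-fold). Both ceramidases were higher, YPC1 at 1.23 and YDC1 at 1.05. Enzymes that add head groups lay on both sides. Lower were AUR1 at 11.69 and 10.62 (2.11-fold) and IPT1 at 11.40 and 9.99 (2.65-fold). SUR1, a mannosyltransferase of the step between them, lay inside 1.5-fold at -0.51, and CSH1, its relative, was higher at 5.64 and 6.29 (1.57-fold), though inside 1.5-fold with centred arrays. The reductase TSC10 was lower (9.01 and 7.64, 2.58-fold).

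The machinery that builds the cell wall held more lower than higher genes. Mannosylation and GPI anchoring genes counted 1 higher and 7 lower of 20, and lower for 3 to 13 over the scalings. OCH1, the first mannosyltransferase of outer chains, had 8.43 and 7.19 (2.36-fold lower), PMT2, an O-mannosyltransferase, 9.96 and 8.80 (2.23-fold lower) and MCD4, of GPI anchor synthesis, 9.16 and 7.96 (2.31-fold lower). Of 24 genes for glucan and chitin 2 were higher and 9 lower, for a median of -0.29. With perfect-match intensities 3 were higher and 4 lower, for a median of 0.06. The median lengths of these lists, 1839 and 1684.5 bp, lie in a length bin where 16.3% of all genes were higher and 20.1% lower. GAS1, a glucan-elongating enzyme, had 12.47 and 11.15 (2.50-fold lower) and FKS1, the main glucan synthase, 11.90 and 10.96 (1.92-fold lower). In the cell wall integrity pathway 2 of 20 genes were higher and none lower. SLT2, its MAP kinase, was one of them (6.14 and 7.32, 2.27-fold), and 10 of the 20 were above mismatch on either array, which limits what the list can show.

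Amino acid permeases were lower as a group, with 12 of 20 lower and 1 higher and a median of -0.99. Lower members numbered 10 to 15 over the scalings. Besides TAT1 and BAP2 they included the general permease GAP1 (10.53 and 8.53, 4.01-fold), the S-methylmethionine permease MMP1 (8.83 and 6.55, 4.86-fold) and MUP1, the high-affinity methionine permease (11.77 and 9.43, 5.04-fold). TAT2, the high-affinity tryptophan permease tied to growth under pressure, was at 10.34 in the control and 8.94 under pressure (2.64-fold lower). The exception was MUP3, the low-affinity methionine permease, at 9.09 and 10.52 (2.69-fold higher). DIP5, the dicarboxylic amino acid permease, lay at 11.54 and 11.63, and SSY1, the amino acid sensor, at 7.18 and 7.50, both inside 1.5-fold.

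Other transporter lists lay on both sides. Hexose transport and sensing genes counted 7 lower and 1 higher of 20, but 3 and 3 with perfect-match intensities. HXT4 had 10.37 and 9.47 (1.86-fold lower), HXT3 13.67 and 13.49, inside 1.5-fold, and HXK1, a hexokinase repressed by glucose, 8.75 and 10.56 (3.51-fold higher). In high-affinity iron uptake 6 of 16 were lower, among them the siderophore transporter SIT1 (8.57 and 6.73, 3.58-fold) and the reductase FRE1 (8.22 and 6.45, 3.42-fold). The 1 higher member was ATX1, the copper chaperone that supplies the secretory pathway (8.45 and 11.17, at least 6.61-fold). FET3, the multicopper oxidase of iron uptake, was lower (11.61 and 7.78, 14.3-fold). The metallothionein gene CUP1-1 was at 10.38 in the control and 13.37 under pressure (7.91-fold), and CRS5, a second metallothionein, at 6.80 and 8.09 (at least 2.43-fold). CUP1-2 is a copy of CUP1-1 that the probes cannot separate from it. The copper importer CTR1 was above mismatch on neither array, at 6.99 and 6.71. Both plasma membrane zinc transporters were higher, ZRT1 at 1.11 and ZRT2 at 0.94. PHO90, a low-affinity phosphate transporter, was lower (9.55 and 7.73, 3.54-fold), with PHO84, the high-affinity one, at -0.41.

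Biosynthetic pathways for building blocks held lower genes in several places. In branched-chain amino acid synthesis 6 of 11 genes were lower and none higher, for a median of -0.68 (2 lower, median -0.27, with perfect-match intensities). LEU9, an isopropylmalate synthase, had 10.35 and 8.98 (2.58-fold lower), LEU1 11.18 and 10.03 (2.22-fold lower) and ILV2, acetolactate synthase, 11.02 and 9.98 (2.05-fold lower). The pentose phosphate pathway had 7 of 11 lower and none higher, for a median of -0.84 (3 lower and 1 higher, median -0.50, with perfect-match intensities). Its ratios ran from -2.05 for TKL2, a transketolase not above mismatch under pressure, to 0.22 for SOL4, a 6-phosphogluconolactonase. RKI1, ribose-5-phosphate ketol-isomerase, was lower (8.74 and 7.13, 3.05-fold). GND1, the main 6-phosphogluconate dehydrogenase, was lower as well (12.03 and 11.19, 1.79-fold), and ZWF1, the first enzyme, lay at 0.00. Tryptophan and aromatic synthesis lay near its control levels, with 1 higher and 3 lower of 16, and TRP5, tryptophan synthase, had 11.43 and 11.64.

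All 3 nucleotide lists held more lower than higher members on the deposited scale. De novo purine synthesis counted 4 lower and 1 higher of 14, but 1 and 1 with perfect-match intensities. In guanine nucleotide synthesis and purine salvage 6 of 13 were lower and 3 higher. GUA1, GMP synthase, was at 12.12 in the control and 10.05 under pressure (4.19-fold lower), directly after the step of IMD2, IMP dehydrogenase, which was higher at 3.20. IMD3 and IMD4, of the same step, lay at -0.05 and -0.92. IMD2 probes can also read IMD1, a near-identical pseudogene whose row was higher by 2.82. APT1, adenine phosphoribosyltransferase, had 12.01 and 10.59 (2.66-fold lower) and the purine permease FCY2 12.70 and 11.35 (2.55-fold lower). Pyrimidine and deoxynucleotide genes counted 9 lower and 3 higher of 21, for a median of -0.15 that was 0.10 with perfect-match intensities. URA5, of the step from orotate, was lower as well (11.46 and 10.72, 1.66-fold lower), at -0.17 with perfect-match intensities. URA7, the main CTP synthase, had 10.54 and 8.09 (5.47-fold lower), the uridine permease FUI1 10.92 and 8.95 (3.92-fold lower) and RNR1, the large subunit of ribonucleotide reductase, 10.36 and 8.24 (at least 4.35-fold lower).

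One-carbon metabolism had 5 higher and 5 lower of 17 and no side kept across the scalings. MIS1, the mitochondrial C1-tetrahydrofolate synthase, had 9.02 and 7.15 (3.65-fold lower) and SHM1, the mitochondrial serine hydroxymethyltransferase, 11.38 and 10.25 (2.19-fold lower). MET13, a methylenetetrahydrofolate reductase of methionine synthesis, had 9.21 and 10.51 (2.46-fold higher), and MTD1, a cytosolic dehydrogenase, 7.01 and 8.18 (2.26-fold higher). Lysine and arginine genes also fell on both sides, with 6 higher and 6 lower of 20. CAR1, arginase, had 10.17 and 8.57 (at least 3.04-fold lower) and CAR2, the next enzyme of arginine breakdown, 10.38 and 9.34 (2.06-fold lower), while LYS1, the last enzyme of lysine synthesis, had 9.63 and 10.82 (2.28-fold higher).

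Genes for making ribosomes and charging tRNA were lower. Of 36 ribosome biogenesis genes 21 were lower and 1 higher, for a median of -0.65 (12 lower, median -0.27, with perfect-match intensities). Beside DBP2 and NSR1, NOG1, a GTPase of the large subunit, had 9.75 and 7.52 (at least 4.67-fold lower), NMD3, its export adaptor, 9.78 and 7.83 (3.87-fold lower) and RIX1, of large-subunit maturation, 8.59 and 6.66 (3.80-fold lower). Of the genes at the low end of the whole table, ARX1 and RRP12, also of ribosome maturation, had ratios of -2.28 and -2.13. DPH2, which modifies elongation factor 2, had 9.29 and 7.05 (4.73-fold lower). Of 19 cytosolic aminoacyl-tRNA synthetases 11 were lower and none higher, and the median was -0.68. Perfect-match intensities gave 4 lower and 1 higher at a median of -0.33. Their ratios ran from -1.04 for ALA1, the alanine enzyme, to 0.44 for SES1, the serine enzyme, and DED81, for asparagine, had 11.43 and 10.41 (2.04-fold lower).

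The medians of RNA polymerase I and II subunits lay on different sides of 0. Of 7 subunits particular to RNA polymerase I, which makes ribosomal RNA, 5 were lower and 1 higher, for a median of -0.95 and the same sign under every scaling. RPA135, its second largest subunit, had 10.17 and 7.76 (5.32-fold lower), and RPA190, the largest, 8.39 and 7.43 (1.94-fold lower). Of 11 RNA polymerase II subunits 6 were higher and none lower, for a median of 0.75 (3 and 2 with centred arrays, median 0.41, and 5 and 1 without the length trend, median 0.42). These genes are short, with a median length of 544 bp, and 6 of 11 is near the 50.1% of the shortest length bin. RPB4 had 4.78 and 6.98 (at least 4.58-fold) and RPB10, a small subunit shared by all 3 polymerases, 8.14 and 10.25 (4.34-fold). The 2 large subunits were inside 1.5-fold, RPO21 at -0.56 and RPB2 at -0.17. In the list of polymerase I and III together 5 were higher and 8 lower of 22, but 5 and 4 with perfect-match intensities. RPC11, a small subunit of polymerase III, had 6.45 and 7.99 (2.91-fold higher), RPO31, its largest, 7.16 and 5.83 (at least 2.52-fold lower) and MAF1, its repressor, 5.18 and 6.27 (at least 2.12-fold higher).

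Translation factors were lower for 11 of 32 and higher for 4, but 2 and 6 with perfect-match intensities. TIF11, the initiation factor eIF1A, had 7.92 and 10.38 (5.50-fold higher), while PRT1 and RPG1, subunits of eIF3, had ratios of -1.03 and -1.00. TEF4, a subunit of elongation factor 1B, had 11.82 and 10.33 (2.79-fold lower). The counts of cytosolic ribosomal protein genes turned with the scaling. On the deposited scale 21 of 132 were higher and 4 lower, for a median of 0.12. With perfect-match intensities 51 were higher and 0 lower (median 0.46), and with centred arrays 12 were higher and 27 lower (median -0.22). Their highest member, RPS30A, had 10.34 and 12.25, and their lowest, RPL16A, 13.32 and 12.55.

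Few cell cycle genes were past 1.5-fold. Of 19 cyclins and inhibitors 2 were higher and 1 lower, with FAR1, which arrests cells in G1, at 6.26 and 7.06 (1.74-fold higher) and the G1 cyclin CLN2 at 7.74 and 6.98 (at least 1.70-fold lower). Pheromone-response genes counted 7 higher and none lower of 14, with 3 and 0 when centred. KAR4, a transcription factor of mating, had 3.86 and 5.62 (at least 3.40-fold), PRM5 6.89 and 8.06 (2.25-fold), and FUS1 was above mismatch on neither array. The alpha-cell regulator MATALPHA2 had 6.20 and 9.15 (7.73-fold higher) and MATALPHA1 8.20 and 9.31 (2.16-fold higher). Both share sequence with copies at the silent mating cassettes, which the probes cannot separate. The pheromone receptor STE3 was higher at 0.92, and MF(ALPHA)1 was inside 1.5-fold at -0.23. Of 13 meiosis genes none was higher and 1 was lower, and 3 passed the filter on low levels.

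Some related genes lay on opposite sides. Among 105 pairs that share an enzyme or protein function, drawn up after the values were seen, 11 had 1 gene higher and the other lower past 1.5-fold, 14 had both higher, 6 both lower, 37 a single gene past that size and 37 neither. Over all counted genes 28.1% were higher and 12.2% lower. Some of the pairs are close copies, such as SSB1 and SSB2, whose probes may read each other's transcript. Shared signal could make such pairs look alike, and how far it did was not tested. Centring shifts every ratio alike by less than 1.5-fold, so it could not turn the sign of a gene past that size. The 11 opposed pairs kept opposite signs under all 4 other scalings. They include the genes given above as UBC4 and UBC5, COX5B and COX5A, CYC7 and CYC1, and STF1 and INH1. The methionine permeases MUP3 and MUP1 made another. The CTP synthase genes had opposite ratios, 1.01 for URA8 (7.15 and 8.16) and -2.45 for URA7. URA10, the minor orotate phosphoribosyltransferase, was at 5.42 in the control and 7.72 under pressure (4.92-fold higher) and URA5, the major one, at 11.46 and 10.72 (1.66-fold lower). SAM2, an S-adenosylmethionine synthetase, had 10.02 and 11.52 (2.83-fold higher) and SAM1 12.25 and 11.47 (1.71-fold lower).

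The other opposed pairs were acid phosphatases, phosphoglucomutases and glutathione peroxidases. PHO5, induced by lack of phosphate, had a ratio of 1.69 and PHO3, the constitutive form, -1.46. PGM2 had 1.22 and PGM1 -0.71. GPX1 was at 5.13 and 7.19 without passing its mismatch probes on either array, and GPX2 at 7.46 and 6.61 (1.80-fold lower). With perfect-match intensities the gene on the lower side stayed past 1.5-fold for some of these pairs but not for others, with URA5 at -0.17, SAM1 at -0.16 and UBC5 at -1.02. Pairs with both genes higher included the glycogen synthases GSY1 and GSY2, the tropomyosins, the glutaredoxins and the Hsp90 genes.

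**Figure D4:**
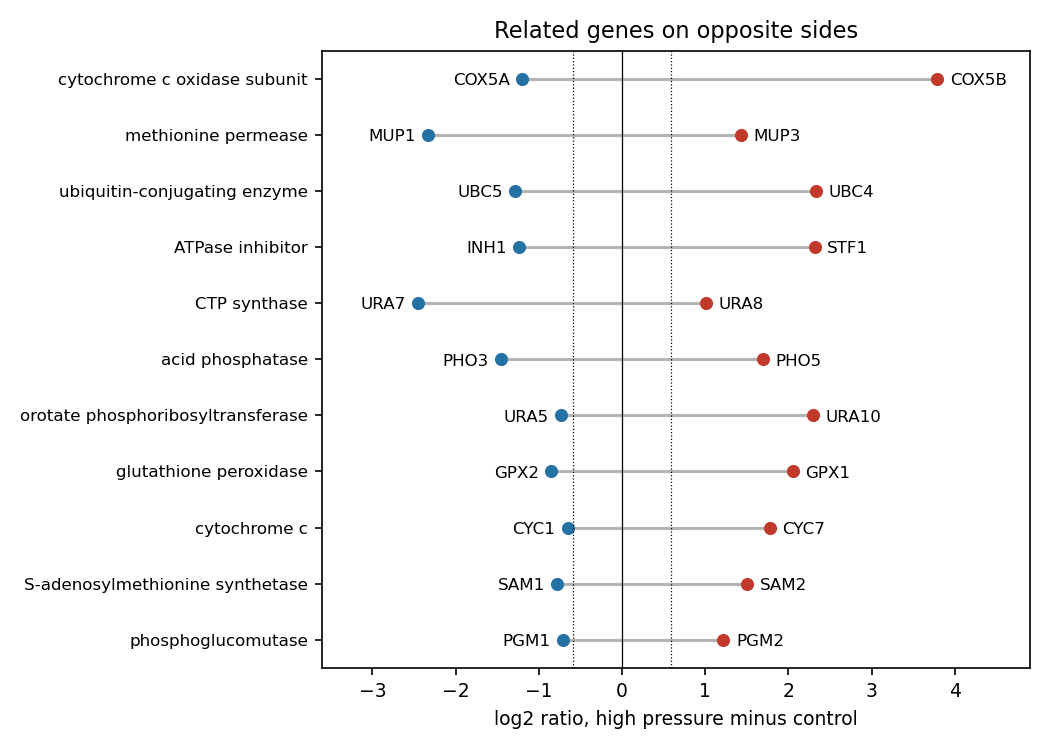
Log2 ratio (high pressure minus control, horizontal axis) of the 11 pairs of related genes with 1 member higher (red) and 1 lower (blue) past 1.5-fold, which the dotted lines mark. The widest gap is between COX5A and COX5B. All 11 pairs kept opposite signs under perfect-match intensities, centring, quantile normalization and removal of the length trend, although some ratios then lay inside 1.5-fold. Centring, a shift of all ratios by less than 1.5-fold, could not have turned these signs.

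The highest 25 genes of the table held several small or little-studied genes. EMC10, of a membrane protein insertion complex, had 6.71 and 9.82 (at least 8.63-fold), MDM35, which carries lipid-transfer proteins into mitochondria, 6.63 and 9.37 (6.68-fold), YBR085C-A 6.51 and 9.36 (7.24-fold), and CHP1 7.41 and 10.15 (6.67-fold). All 25 stayed past 1.5-fold with perfect-match intensities, and 24 of the 25 lowest did. These genes were picked for extreme RMA ratios from the same probes on the same 2 arrays, so that is no independent support. YGR079W, among the lowest, was at least 4.68-fold lower by RMA (a log2 ratio of -2.23) and had a log2 ratio of -0.42 with perfect-match intensities. Against the same control, 24 of the 25 highest and 22 of the 25 lowest were past 1.5-fold the same way at 15 °C. STF2 had 12.81 at 15 °C beside 11.97 under pressure, and OPI3 12.93 beside 12.89, while DAN1 had 9.73 beside 13.42. Whether these differences belong to pressure alone was not tested.

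Adjacent genes were also compared along the chromosomes. Of 5506 adjacent pairs, 98 had both genes higher past 2-fold and 17 both lower, and 10 pairs had both past 4-fold in 1 direction. Over all counted genes 14.9% were higher and 5.12% lower past 2-fold, and 3.0% and 0.694% past 4-fold. UIP3 and KTD1, members of the DUP240 family on chromosome I, had log2 ratios of 2.46 and 2.51, and as relatives they may share probes. NRG2, a glucose-responsive repressor, and TIP1, a DAN/TIR mannoprotein on chromosome II, had 2.00 and 2.33. HSK3, of the kinetochore, and MRPL31 on chromosome XI were at least 5.52-fold and at least 4.06-fold higher. YPT6, a Golgi GTPase on chromosome XII, was at least 4.23-fold higher, between VPS63, which overlaps it (at least 5.88-fold), and TMA7 (4.87-fold). Overlapping genes cannot be told apart where probes fall in the shared part. YEL073C and RMD6 on chromosome V were at least 8.43-fold and at least 5.63-fold higher, and MRP2 and MET16 on chromosome XVI at least 5.64-fold and 4.04-fold. TIR4 had 2.95 beside TIR2 on chromosome XV, which was above mismatch on neither array at 8.01 and 10.42. The 2 pairs with lower levels were BAP2 and TAT1, and PRM7 and BSC1.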

How the data were processed

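The log2 levels were made by the authors with RMA and quantile normalization, per the labels, and RMA is also named in the submitters' processing notes. Its version, and the background step, are not given in the sources used here. The gene values as deposited did not share 1 distribution, with medians of 6.43 on the control array and 6.76 on the high-pressure array. Per the file headers, each deposited calls table gives for a row the mean perfect-match and mismatch intensity of 15 probe pairs on a linear scale. The same deposited tables give a coefficient of variation, the ratio that the authors formed of SD to mean over the probes. The design text takes 1.5-fold as significant over the 15 probes of a gene. That speaks of probes within an array and not of cultures, so it was used as a size and not as a test.

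Rows were joined to the per-array tables by their identifier and averaged per gene. Names were matched to the RefSeq table of assembly R64, used for names, gene order and lengths: 1723 rows through the locus tag, 3950 through the symbol, 156 through a synonym on the same chromosome, and 508 kept as in the files. Detection used a t limit of 1.76 with 14 degrees of freedom on the mean probe-pair difference. The length trend was a lowess curve with a span of 0.3 (statsmodels 0.14.6, pandas 2.3.3, numpy 2.4.6), tested on simulated data. The named genes were the 25 highest and 25 lowest ratios above mismatch on the brighter array, any member of a list of up to 16 genes, the 5 highest and 5 lowest of longer lists, and adjacent pairs both past 4-fold. Other genes, the pairs of related genes and the parts of complexes were singled out after their values were seen. The 65 lists and all members were chosen with earlier results of these data known. Precision is limited by having 1 array a side. SSA1 was not analysed here. The planned shares of promoters with a motif were not computed.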

Additional observations from a re-analysis of the deposited data

How the results depend on the processing

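Of the counts of all genes past 1.5-fold, 1376 higher and 599 lower, the lower one was 257 with perfect-match intensities, 280 with perfect match minus mismatch among genes above mismatch on both arrays, and 925 after quantile normalization. Centring each array on its median gave 840 higher and 1231 lower. Genes above mismatch on both arrays gave 811 higher, and a 2-fold limit gave 729 higher and 251 lower. Every other count of all genes was within 1.5 times the main one, under removal of the length trend, no filter, a filter at the 50th percentile, detection on at least 1 array and the row with the highest mean level. The list medians of 17 of 65 lists changed sign with centring and of 13 with perfect-match intensities. Which scaling is nearer to the levels in the cells was not tested, and with no replicate array no ratio can be set against an error between cultures. No paired analysis was possible because each group has 1 array. Shares of promoters with a motif, and their alternative at 2-fold, were not run, since no promoter sequence was used here.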
